A study of Mus musculus with 46 samples.

Results

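Potassium channel genes were followed after chronic ethanol vapor in the BNST, the bed nucleus of the stria terminalis, which belongs to the extended amygdala of the forebrain. The genes were taken by name: every probeset with exactly 1 platform gene symbol that starts with Kcn, except Kcnj8, which gave 166 of 45037 probesets and 83 of 18193 genes in 19 subfamilies. A probeset is a group of short DNA probes on the array that together report the amount of a transcript. Of the 83 genes, 37 had 1 probeset and 46 had several, with up to 6. By gene ID all 83 matched RefSeq, 80 of them as protein-coding genes and 3 as long non-coding RNAs (Kcnmb4os1, Kcnmb4os2 and Kcnq1ot1).

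All tissue came from adult male C57BL/6J mice, 1 mouse per array and none pooled. Mice of the CIE (chronic intermittent ethanol) groups received ethanol (1.6 g/kg i.p.) with pyrazole (1 mmol/kg), a blocker of alcohol dehydrogenase, and then ethanol vapor for 16 hours a day over 4 days, in 4 such cycles with 7 days without ethanol between them. Mice of the Ctrl groups received saline with the same dose of pyrazole and breathed air in like chambers, so pyrazole, injection and chamber were shared by all groups. Tissue was collected at 4 times counted from the end of the final vapor session (0h, 8h, 72h and 7d), with 6 mice in each of the 8 groups except CIE at 7d, which held 4.

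Potassium channels let potassium leave the cell, which holds the resting potential of neurons, ends the action potential and sets how fast a neuron can fire again. Voltage-gated channels (Kcna, Kcnc, Kcnd, Kcnh and Kcnq) open on depolarization, inward rectifiers (Kcnj) pass current near rest, K2P channels (Kcnk) carry leak current, and calcium-activated channels (Kcnma, Kcnmb and Kcnn) open as calcium enters. Kcnt channels are gated by sodium. Kcnab, Kcne, Kcnip and Kcnmb genes encode accessory subunits, while Kcnf, Kcng, Kcns and Kcnv encode silent subunits that act only inside channels with other members. Ethanol is known to act directly on several of them, among them the G protein-gated inward rectifiers (GIRK channels, from Kcnj3, Kcnj5, Kcnj6 and Kcnj9) and the large-conductance calcium-activated BK channel (Kcnma1).

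Values are RMA signals on the log2 scale, so a difference of 1 is a doubling, and levels of different probesets were not set against each other because each probeset has its own brightness. Array medians lay between 6.78 and 6.83, and the correlation of any pair of arrays between 0.981 and 0.998. Of the 166 Kcn probesets, 18 had a mean of 10 or more and 27 a mean below 5, near the dim end of the scale. No probeset was left out, so the counts below are over all 166. A probeset is said to have been called at a limma adjusted p of 0.01 or less, adjusted over all 45037 probesets. In 3 arrays the values fitted their group less well than in the others, with weights of 0.24 (Ctrl 0h mouse 48), 0.33 (CIE 8h mouse 21) and 0.34 (Ctrl 0h mouse 56) where the next lowest was 0.54 and the highest 2.12, and counts are given with and without them. Because tissue was measured in bulk, fewer cells of a type and less RNA per cell cannot be told apart.

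Immediately after the last ethanol vapor (0h), 3 potassium channel genes differed between CIE and Ctrl. Kcna1 and Kcnk2 were higher after ethanol vapor and Kcnj16 was lower, by 1.22-fold to 1.39-fold. These were 4 of 166 Kcn probesets or 2.41%, beside 2.40% of all probesets, 2 of them higher (1.05% of all) and 2 lower (1.35% of all). In 6 Kcn probesets (3.61%, beside 2.50% of all) the CIE and Ctrl mice did not overlap, 5 of them higher in CIE (beside 1.15% of all) and 1 lower (beside 1.35% of all). Without the 3 arrays of low weight the call count was 8 (3.04% of all probesets were called). The same 4 probesets were joined by those of Kcns2 (0.62, adjusted p = 6.13e-05), Kcnh1 (0.43), Kcnc1 (0.36 in 1456944_at) and Kcnk13 (fell by 0.43). The brightest Kcnc1 probeset, 1443855_at, went the other way at 0h, with means over all arrays of 11.64 in Ctrl and 11.39 in CIE. With single arrays left out the count ran from 1 to 7, and it was 1 without Ctrl 0h mouse 12 or CIE 0h mouse 26, 57 or 67. The share of all probesets called in those fits is not given, so a loss particular to Kcn probesets cannot be told from a general one. The median difference over the Kcn probesets was -0.002, against -0.003 over all probesets. The mean was higher in CIE in 83 Kcn probesets at 0h (50.0%, beside 48.9% of all), 88 at 8h (53.0%, beside 49.1%), 86 at 72h (51.8%, beside 49.8%) and 69 at 7d (41.6%, beside 53.9%).

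Kcna1 encodes Kv1.1, a channel of axons and presynaptic terminals that limits repetitive firing. At 0h its probeset 1417416_at ran from 10.91 through a median of 11.18 to 11.42 in Ctrl mice and from 11.56 through 11.62 to 11.75 in CIE mice. The groups did not overlap. The difference was 0.47 ± 0.108 (SE, 1.39-fold; adjusted p = 0.00481). Of the 3 other Kcna1 probesets, 1455785_at (0.39, adjusted p = 0.0131) and 1437230_at (0.42, adjusted p = 0.0148) also had groups that did not overlap without being called, and the dim 1442413_at, with a mean of 4.54, differed by 0.00. With the probesets of the gene averaged, the difference was 0.32 (adjusted p = 0.00328).

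At 8h the same Kcna1 probeset was the 1 Kcn probeset called of 166 (0.602%, beside 0.557% of all probesets in either direction and 0.335% higher) and the 1 whose groups did not overlap (beside 1.10% of all). It ran from 10.32 through 10.79 to 11.03 in Ctrl and from 11.08 through 11.17 to 11.48 in CIE, a difference of 0.49 ± 0.108 (1.41-fold; adjusted p = 0.00835). The brightest Kcna1 probeset, 1455785_at, overlapped between groups at 8h and differed by 0.24 (adjusted p = 0.344), and 1437230_at overlapped and differed by 0.42 (adjusted p = 0.0391), neither of them called. The means of Ctrl and CIE went from 11.17 and 11.64 at 0h to 10.73 and 11.22 at 8h, so that both groups lay lower and about as far apart. Without the 3 arrays of low weight its difference was 0.44 and was not called (adjusted p = 0.02). The 1 Kcn probeset then called was that of Kcne1l (fell by 0.42, adjusted p = 0.00161; 0.706% of all probesets were called). At 72h and 7d Kcna1 (1417416_at) was not called, with means of 10.81 ± 0.219 (SD, n = 6) in CIE and 11.07 ± 0.228 (n = 6) in Ctrl at 72h, and 11.16 ± 0.0599 (n = 4) in CIE and 11.30 ± 0.234 (n = 6) in Ctrl at 7d. The change of the CIE effect from 0h to 72h was -0.72 ± 0.153, and the F test over all changes of effect was passed (adjusted p = 0.00101).

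Kcnk2 encodes TREK-1, a leak channel opened by membrane stretch and polyunsaturated fatty acids. At 0h its single probeset ran from 9.70 through 9.79 to 9.87 in Ctrl mice and from 9.96 through 10.08 to 10.11 in CIE mice. The groups did not overlap, and the difference of 0.28 ± 0.0477 (1.22-fold; adjusted p = 0.000101) had the lowest adjusted p of any Kcn probeset in a comparison of CIE with Ctrl. At the 3 later times the difference lay between -0.01 and 0.04. Levels of the Ctrl mice at 0h were below those at later times, with means of 9.78 at 0h, 9.93 at 8h, 9.90 at 72h and 9.89 at 7d. The Ctrl time course of Kcnk2 was not called (adjusted p = 0.0903).

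Kcnj16 encodes Kir5.1, which joins Kir4.1 (Kcnj10) in astrocytes to form a channel that takes up potassium and senses pH. At 0h its probeset 1435094_at ran from 8.20 through 8.46 to 8.68 in Ctrl and from 7.89 through 8.10 to 8.29 in CIE. The highest CIE mouse overlapped the lowest Ctrl mouse. The difference was -0.38 ± 0.0886 (1.30-fold lower; adjusted p = 0.00596), and a second probeset, 1436163_at, fell by 0.34 (adjusted p = 0.00752). In a fit of the 0h groups alone the first was not called (adjusted p = 0.0468). Kcnj10 itself had means of 11.19 ± 0.147 in Ctrl and 10.96 ± 0.104 in CIE (n = 6 each), a difference of -0.23 that was not called (adjusted p = 0.0252).

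Kcnd3, Kcnk6 and Kcns2 lay near the threshold at 0h. A probeset of Kcnd3, which encodes the A-type channel Kv4.3, ran from 7.12 to 7.23 in Ctrl and from 6.85 to 6.96 in CIE with no overlap (-0.25 ± 0.0612, adjusted p = 0.0102), whereas the bright Kcnd3 probeset 1435720_at, with a mean of 11.06, differed by -0.05. Kcnk6, which encodes the leak channel TWIK-2, ran from 7.79 to 8.25 in Ctrl and from 8.30 to 8.46 in CIE (0.35 ± 0.0916, adjusted p = 0.0155). Kcns2, which encodes the silent subunit Kv9.2, overlapped between groups and differed by 0.45 ± 0.114 (adjusted p = 0.0107). Its other probeset, 1421342_at with a mean of 6.07, differed by -0.10.

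Markers of other cell types also differed at 0h, and their part in these results was not tested. Over all 18193 genes, 3.09% were called at 0h and 0.742% at 8h. Of 9 measured microglial markers 2 were called lower (Fcrls and Gpr34), with list means of 9.44 to 9.84 in Ctrl mice and 9.07 to 9.45 in CIE mice. The endothelial list (2 of 8 called lower) ran from 8.93 to 9.31 in Ctrl and from 8.85 to 9.02 in CIE, and the mural list (1 of 7 called lower) from 8.78 to 9.14 and from 8.61 to 8.84. The choroid plexus list (1 of 8 called higher) ran from 6.12 to 6.44 in Ctrl and from 6.34 to 6.62 in CIE. Of 10 astrocyte markers none was called, and the list ran from 11.44 to 11.71 in Ctrl and from 11.42 to 11.56 in CIE. The oligodendrocyte list (1 of 9 called lower, Ugt8a) ran from 11.73 to 12.29 in Ctrl and from 11.99 to 12.10 in CIE. The striatal medium spiny neuron list, for cells of the neighboring striatum, had 8 of 8 means higher in CIE with none called and ranges of 9.71 to 10.50 in Ctrl and 10.02 to 11.01 in CIE. The list for cholinergic neurons of the basal forebrain had 0 of 7 means higher with none called, and ran from 7.29 to 8.15 in Ctrl and from 7.35 to 7.63 in CIE. At 8h the microglial list ran from 9.28 to 9.65 in Ctrl and from 9.09 to 9.64 in CIE, with 1 of 9 called lower, and the general neuron list from 12.36 to 12.45 and from 12.38 to 12.44, with none of 8 called. Of the astrocyte list 1 of 10 was called higher at 8h (Gjb6), and of the oligodendrocyte precursor list 1 of 5 was called lower (Gpr17).

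**Figure D1:**
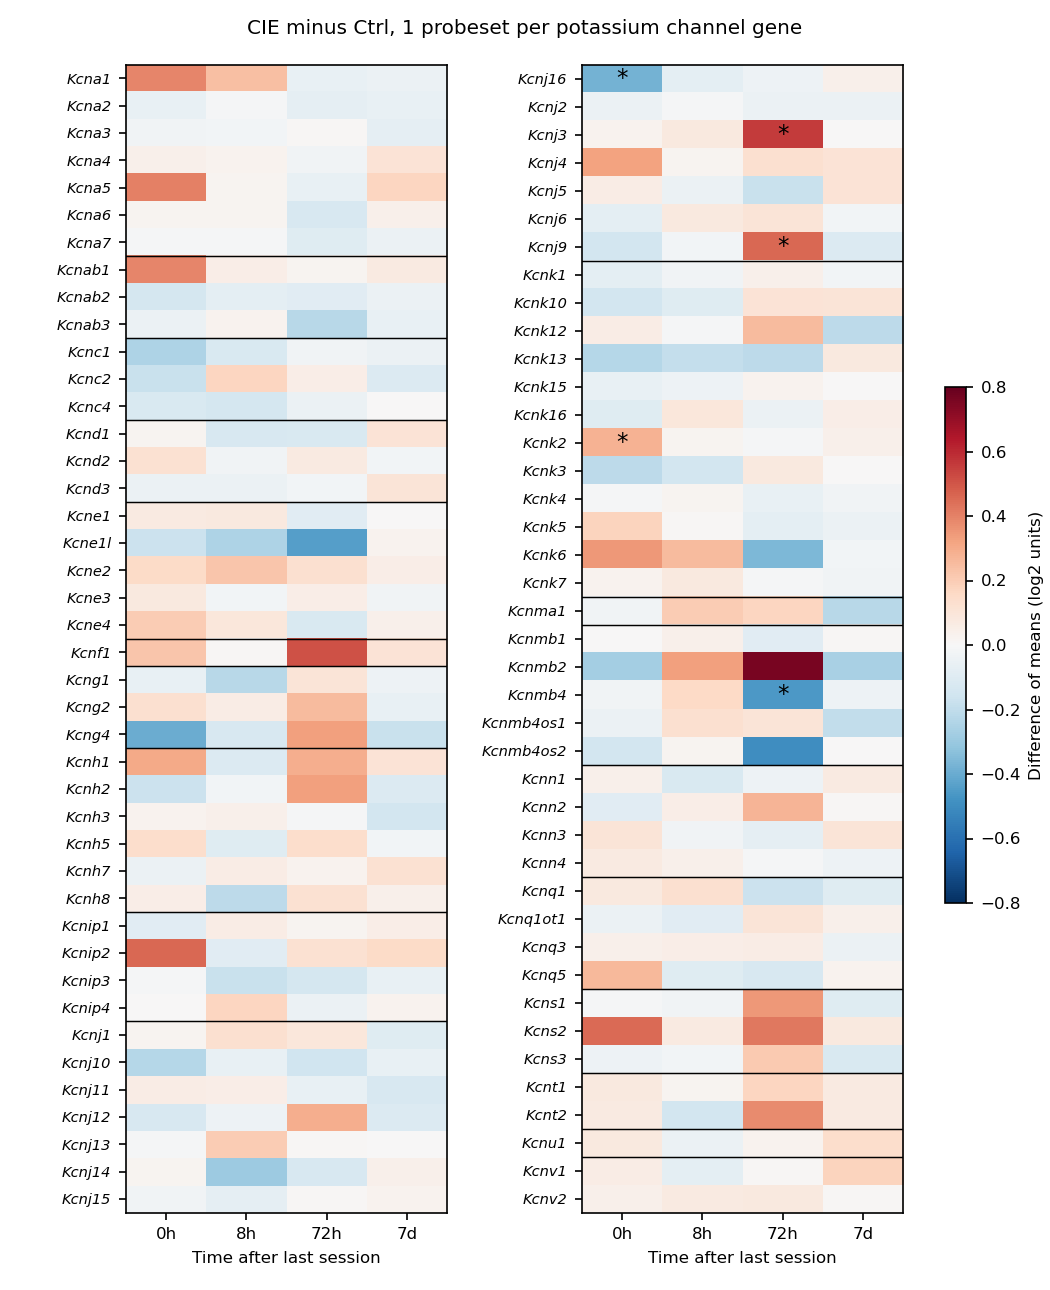
Difference of group means (CIE minus Ctrl, log2 units, color) for the representative probeset of each of the 83 potassium channel genes (rows, ordered by subfamily with lines between subfamilies) at 0h, 8h, 72h and 7d (columns). A star marks an adjusted p of 0.01 or less: Kcnk2 and Kcnj16 at 0h, and Kcnj3, Kcnj9 and Kcnmb4 at 72h. The called probesets of Kcna1 and Kcnma1 are not the representative ones and carry no star here.

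At 72h the potassium channel genes that were called came from 2 channel types. Kcnj3 and Kcnj9, which encode the GIRK subunits GIRK1 and GIRK3, were higher in CIE mice. Of the BK channel genes, Kcnma1, which encodes the pore-forming alpha subunit, was called higher in 1 of 5 probesets. Kcnmb4, which encodes the neuronal beta4 subunit that slows BK gating, was lower. These were 5 of 166 Kcn probesets (3.01%), beside 0.433% of all probesets; 4 were higher (0.304% of all) and 1 lower (0.129% of all). In 13 Kcn probesets (7.83%, beside 2.90% of all) the 6 CIE mice and the 6 Ctrl mice did not overlap, 12 of them higher in CIE (beside 1.66% of all) and 1 lower (beside 1.24% of all). Without the 3 arrays of low weight, none of which is from 72h, 10 Kcn probesets were called (1.43% of all), and all 5 were among them. With single arrays left out the count ran from 1 to 6, and it was 1 without Ctrl 72h mouse 44 or 68 or without CIE 72h mouse 3. Here too the share of all probesets called in those fits is not given, so the range does not show a loss particular to Kcn probesets. The median difference over the Kcn probesets was 0.007, against -0.000 over all.

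Because these 4 genes carry the 72h result, the 250 bases before their transcription start are shown, from RefSeq on GRCm38.p6, 5′ to 3′ on the strand of the gene. Capitals mark matches, on either strand, to any of 5 motifs: the TATA box TATAAA, the GC box GGGCGG, the E-box CACGTG, the cAMP response element TGACGTCA and the palindromic glucocorticoid response element. The regions are chr2:55435720-55435969 (plus strand) for Kcnj3, chr1:172329323-172329572 (minus strand) for Kcnj9, chr14:24004206-24004455 (minus strand) for Kcnma1 and chr10:116473524-116473773 (minus strand) for Kcnmb4.
Kcnj3: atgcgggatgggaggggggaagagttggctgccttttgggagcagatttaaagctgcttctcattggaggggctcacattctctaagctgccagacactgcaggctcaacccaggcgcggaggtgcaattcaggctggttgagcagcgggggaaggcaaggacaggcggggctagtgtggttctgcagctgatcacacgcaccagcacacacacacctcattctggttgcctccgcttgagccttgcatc
Kcnj9: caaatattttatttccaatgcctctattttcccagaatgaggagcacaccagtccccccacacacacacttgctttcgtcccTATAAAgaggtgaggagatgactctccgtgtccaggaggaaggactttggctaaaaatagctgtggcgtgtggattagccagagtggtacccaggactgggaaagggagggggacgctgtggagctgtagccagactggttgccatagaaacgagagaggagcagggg
Kcnma1: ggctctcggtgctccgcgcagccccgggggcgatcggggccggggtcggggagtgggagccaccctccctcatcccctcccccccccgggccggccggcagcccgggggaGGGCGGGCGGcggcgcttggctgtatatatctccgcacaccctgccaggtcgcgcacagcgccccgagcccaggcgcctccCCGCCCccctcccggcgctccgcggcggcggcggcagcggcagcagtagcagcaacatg
Kcnmb4: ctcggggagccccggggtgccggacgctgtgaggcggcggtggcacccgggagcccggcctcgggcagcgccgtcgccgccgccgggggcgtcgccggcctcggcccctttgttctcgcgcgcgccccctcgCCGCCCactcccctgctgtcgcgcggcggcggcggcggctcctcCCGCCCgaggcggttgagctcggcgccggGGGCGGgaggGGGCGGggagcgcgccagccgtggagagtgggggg

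The windows of these genes differed in base composition. Kcnma1 held 3 GC boxes, including a pair that overlap each other, and Kcnmb4 held 4, in sequence of 79.2% and 83.6% G and C, against a median of 52% over all promoters. Kcnj3 held none of the 5 motifs and Kcnj9 1 TATAAA, in sequence of 58.4% and 52% G and C. Over 27025 genes with a window of the same length, 32.9% held GGGCGG, 13% TATAAA, 6.05% CACGTG, 1.62% TGACGTCA and 0.0037% the glucocorticoid response element. A match describes the letters and does not show a bound site.

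Kcnj3 encodes GIRK1, a subunit of the channel through which G protein-coupled receptors such as GABA-B and opioid receptors hyperpolarize neurons. At 72h its brightest probeset, 1455374_at, ran from 9.16 through 9.25 to 9.60 in Ctrl and from 9.76 through 9.85 to 10.02 in CIE. All CIE mice lay above all Ctrl mice, with a difference of 0.56 ± 0.0991 (1.48-fold; adjusted p = 0.00205). A second probeset, 1444025_at, ran from 7.24 to 7.71 in Ctrl and from 7.92 to 8.32 in CIE and rose by 0.69 ± 0.125 (1.62-fold; adjusted p = 0.00238). The groups of 1421468_at did not overlap either (0.27, adjusted p = 0.0347, not called), and the dim 1444336_at differed by 0.14. The 72h groups lay on opposite sides of the other times: the Ctrl mean of 1455374_at was 9.30 at 72h and 9.53 to 9.66 at the other times, while the CIE mean was 9.86 at 72h and 9.53 to 9.73 at the others.

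Kcnj9 encodes GIRK3. At 72h its brightest probeset, 1428602_at, ran from 7.86 through 7.94 to 8.08 in Ctrl and from 8.19 through 8.45 to 8.54 in CIE. The groups did not overlap and differed by 0.46 ± 0.0981 (1.38-fold; adjusted p = 0.00878). The 3 dimmer probesets of Kcnj9 were not called, with differences of 0.29, 0.12 and -0.06, and the mean over all 4 differed by 0.20 (adjusted p = 0.199). Without CIE 72h mouse 3 the adjusted p of 1428602_at was 0.0314. The other GIRK genes were not called: the brightest probeset of Kcnj6 (GIRK2) differed by 0.10 (adjusted p = 0.764) and Kcnj5 (GIRK4) by -0.18 (adjusted p = 0.429). Of 4 genes that regulate GIRK channels (Rgs7, Gnb5, Rgs7bp and Snx27), 4 had a higher mean in CIE at 72h and none was called, with a median difference of 0.013.

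Kcnma1 was higher in the mean of all 5 of its probesets at 72h, by 0.17 to 0.55, and 1 was called. That probeset, 1457018_at, ran from 6.86 through 6.94 to 7.40 in Ctrl and from 7.31 through 7.63 to 7.76 in CIE, so that the lowest CIE mouse overlapped the highest Ctrl mouse. It differed by 0.55 ± 0.118 (1.46-fold; adjusted p = 0.00931). It was called in 16 of 46 fits that each left out 1 array, with the highest adjusted p, 0.0347, without Ctrl 72h mouse 68. The brightest Kcnma1 probeset, 1424848_at, ran from 8.38 to 9.58 in Ctrl and from 8.47 to 9.77 in CIE (0.17 ± 0.19).

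Kcnmb4 ran from 10.19 through 10.50 to 10.62 in Ctrl and from 9.85 through 10.03 to 10.14 in CIE at 72h. All CIE mice lay below all Ctrl mice, with a difference of -0.46 ± 0.0961 (1.37-fold lower; adjusted p = 0.00805). Without CIE 72h mouse 3 the adjusted p was 0.0301. The Ctrl mean of 10.46 at 72h was the highest of the 8 groups (10.01 to 10.31 in the others). Kcnmb4os2, a non-coding RNA named for the strand opposite Kcnmb4, ran from 7.38 to 7.97 in Ctrl and from 6.93 to 7.60 in CIE, and its difference of -0.50 ± 0.131 was not called (adjusted p = 0.0359). Kcnmb2, which encodes the inactivating beta2 subunit, had the largest difference of any Kcn probeset at 72h, 0.76 ± 0.249, with no overlap (7.08 to 8.04 in Ctrl and 8.14 to 8.75 in CIE), and was not called (adjusted p = 0.112).

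**Figure D2:**
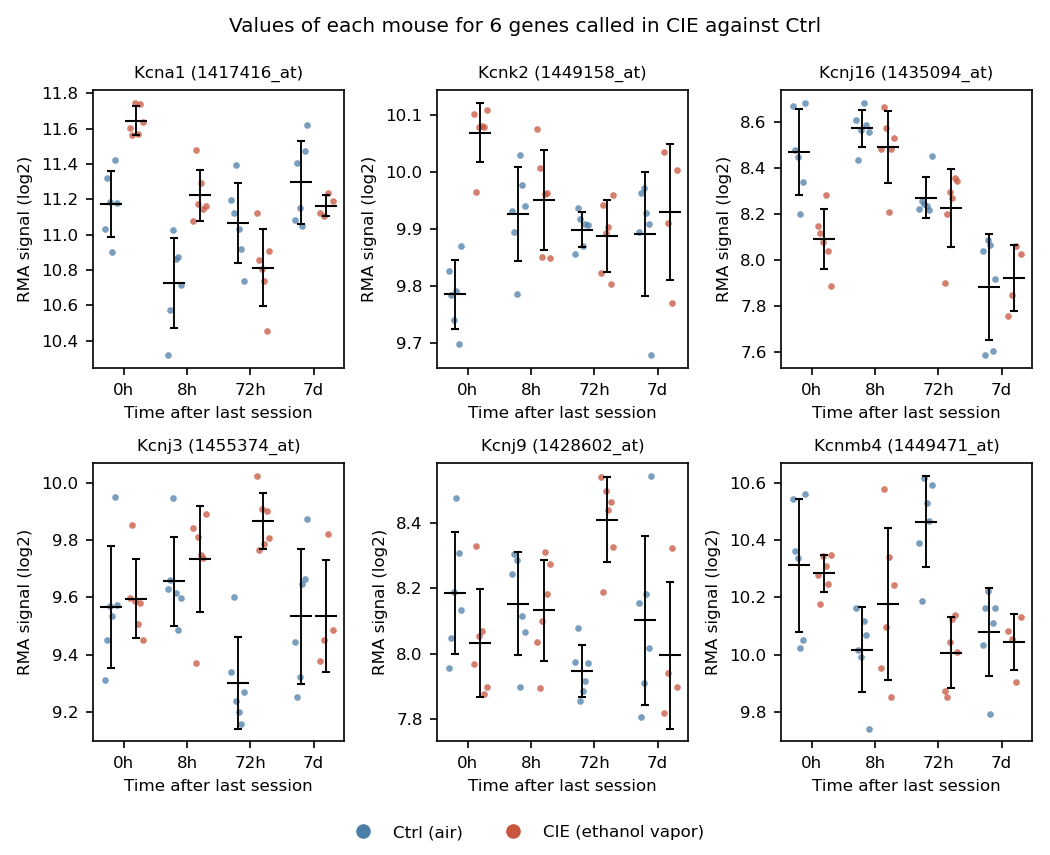
RMA signal (log2) of each mouse for 6 genes over the 4 times (blue, Ctrl; red, CIE; black line and bar, mean ± SD; n = 6 a group, 4 for CIE at 7d). Kcna1 and Kcnk2 do not overlap between groups at 0h, Kcna1 at 8h, and Kcnj3, Kcnj9 and Kcnmb4 at 72h, while Kcnj16 is lower in CIE at 0h with some overlap and all 6 genes overlap at 7d.

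Of the silent subunits none was called at 72h, and some had groups that did not overlap. Kcnf1 (0.51 ± 0.139, adjusted p = 0.0442), Kcns2 (0.42 ± 0.114, adjusted p = 0.0465), Kcns1 (0.35 ± 0.1, adjusted p = 0.0621) and Kcng2 (0.25 ± 0.0658, adjusted p = 0.0344) each had CIE mice that lay all above the Ctrl mice. All 4 Kcng probesets and all 5 Kcns probesets had a higher mean in CIE, with medians of 0.210 and 0.279, whereas 2 of 4 Kcnv probesets did, with a median of -0.006. Of Kcnf1, CIE mice ran from 8.94 to 9.33 and Ctrl mice from 8.41 to 8.75. In a fit of the 72h groups alone the difference of Kcnf1 was called (adjusted p = 0.00484). Kcnh1, Kcnk12 and 1 probeset of Kcnc1 did not overlap either (0.29, 0.25 and 0.35, none called), whereas the brightest Kcnc1 probeset differed by -0.03.

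Marker lists of cell types and of neighboring nuclei differed at 72h in the same mice, and their part in the channel results was not tested. Over all 18193 genes, 0.687% were called at 72h. The list for GABA neurons and the BNST had 13 of 13 means higher in CIE with none called, and ran from 9.94 to 10.27 in Ctrl and from 10.48 to 10.58 in CIE. The list for cholinergic neurons of the basal forebrain had 7 of 7 means lower, 4 of them called (Slc5a7, Lhx8, Ngfr and Gbx1), and ran from 7.66 to 8.08 in Ctrl and from 6.99 to 7.57 in CIE. Neither pair of ranges overlapped. Over the Ctrl groups the mean of the first list was 10.12 at 72h and 10.26, 10.49 and 10.34 at 0h, 8h and 7d, and that of the second 7.92 at 72h and 7.68, 7.38 and 7.43. The striatal medium spiny neuron list, higher in 8 of 8 means at 0h, had 0 of 8 means higher at 72h with none called, and ran from 10.13 to 10.67 in Ctrl and from 9.92 to 10.43 in CIE with overlap.

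Glial lists ran lower in CIE mice at 72h, when 0.687% of all genes were called. The oligodendrocyte precursor list ran from 9.95 to 10.03 in Ctrl and from 9.68 to 9.86 in CIE (1 of 5 called, Gpr17). The oligodendrocyte list ran from 12.12 to 12.23 in Ctrl and from 11.86 to 12.02 in CIE (0 of 9 called), the microglial list from 9.72 to 9.85 and from 9.25 to 9.60 (0 of 9 called), and the astrocyte list from 11.54 to 11.65 and from 11.30 to 11.52 (1 of 10 called, S100b). The general neuron list ran from 12.35 to 12.40 in Ctrl and from 12.40 to 12.46 in CIE, with Map2 called higher. Over all groups the list mean for GABA neurons and the BNST lay between 9.92 and 10.58 in every mouse. Such a mean does not test how the tissue was dissected.

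**Figure D3:**
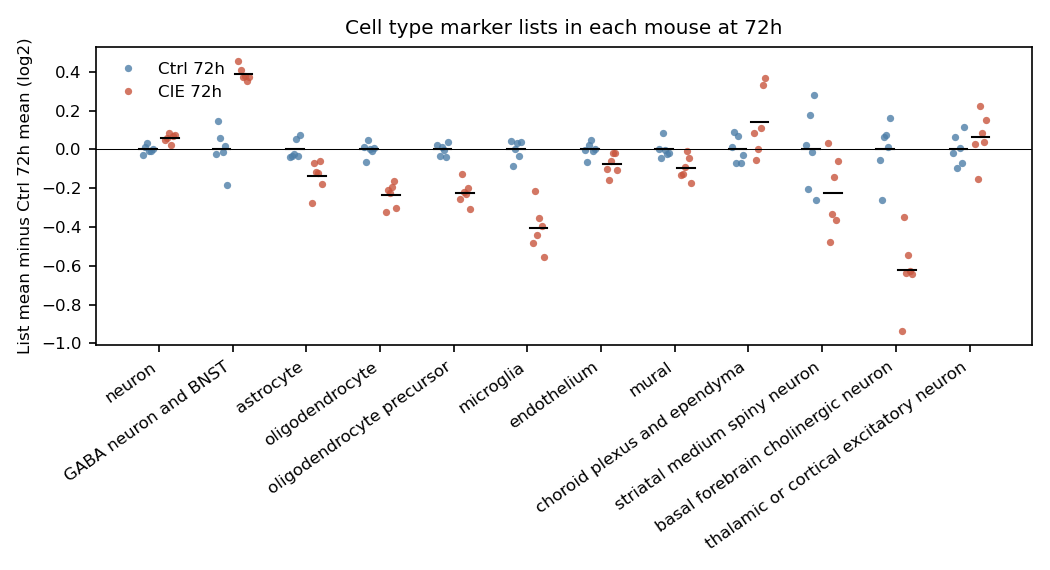
Mean log2 level of each cell type marker list in each mouse at 72h, shown as the distance from the Ctrl 72h mean of that list (blue, Ctrl; red, CIE; black line, group mean; n = 6 each). The GABA neuron and BNST list was higher in all CIE mice, and the cholinergic, oligodendrocyte, oligodendrocyte precursor, microglial and astrocyte lists ran lower, with no CIE mouse inside the Ctrl range.

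The probesets of a gene did not always move alike. In Kcna1 at 0h and Kcnj3 at 72h the bright probesets differed in the same direction, and the dimmest gave 0.00 and 0.14. In Kcnj9 the called probeset was the brightest, while in Kcnma1 it was the fourth of 5 by brightness. Differences of probesets of 1 gene could not be assigned to transcripts here.

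**Figure D4:**
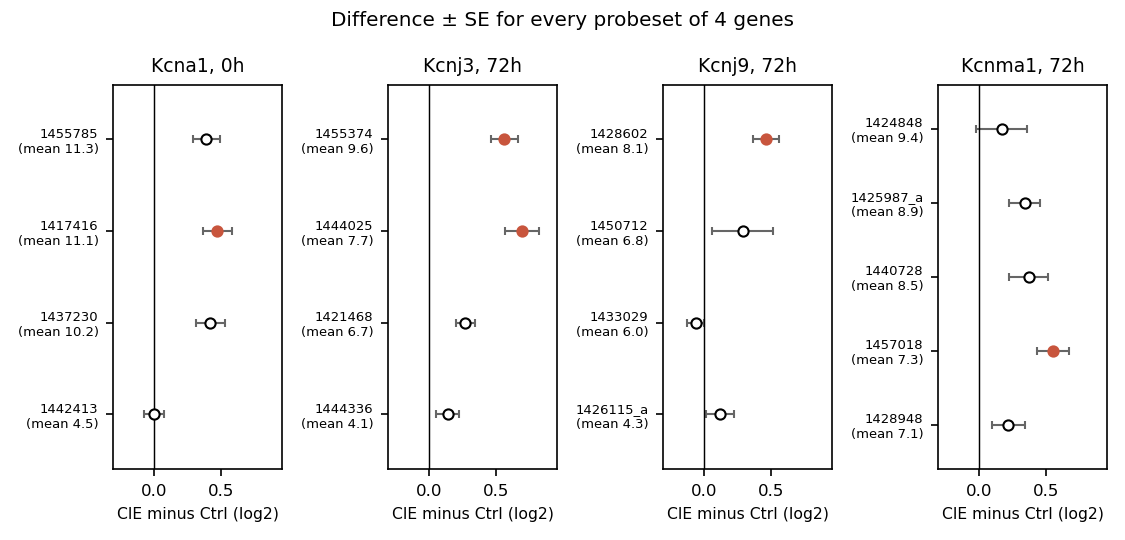
CIE minus Ctrl difference (log2) ± SE of every probeset of Kcna1 at 0h and of Kcnj3, Kcnj9 and Kcnma1 at 72h, ordered from the brightest at the top, with the mean signal under each name (filled red, adjusted p of 0.01 or less; open, not called). Called probesets were 1 of 4 for Kcna1, 2 of 4 for Kcnj3, 1 of 4 for Kcnj9 and 1 of 5 for Kcnma1.

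At 7d no Kcn probeset was called by limma (0% of all probesets), none had groups that did not overlap (beside 1.12% of all), and 5 of 166 had an unadjusted p under 0.05 (3.01%, beside 4.94% of all). Of the genes called earlier, Kcna1, Kcnk2, Kcnj16, Kcnj3, Kcnj9 and Kcnmb4 differed by -0.13 (1417416_at), 0.04, 0.04 (1435094_at), 0.00 (1455374_at), -0.11 (1428602_at) and -0.04. Kcnma1 differed by 0.04 in the probeset called at 72h (1457018_at) and by -0.22 in its brightest. The 4 CIE mice at 7d had Kcnj3 values of 9.38, 9.45, 9.48 and 9.82, within the Ctrl range of 9.25 to 9.87. Their Kcnmb4 values were 9.90, 10.05, 10.08 and 10.13, within the Ctrl range of 9.79 to 10.22. The group of 4 made this comparison less precise, with an SE of 0.121 at 7d and 0.108 at the other times for Kcna1 (1417416_at).

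By the F test over all 4 times, 8 Kcn probesets of 6 genes were called (4.82%, beside 2.84% of all): 2 each of Kcna1 and Kcnj3, and 1 each of Kcnk2, Kcnk6, Kcnd3 and Kcns2. Kcnk6 and Kcna1 were the 2 whose CIE effect changed with time (1.20%, beside 1.04% of all). Kcnk6 was higher in CIE at 0h (0.35) and 8h (0.25) and lower at 72h, when it ran from 8.13 through 8.31 to 8.44 in Ctrl and from 7.68 through 7.99 to 8.17 in CIE (-0.36 ± 0.0916, adjusted p = 0.0323). None of these differences was called at its own time. The change of the Kcnk6 effect from 0h to 72h was -0.70 ± 0.130 (adjusted p = 0.00078), and over all changes the adjusted p was 0.00181. Taken singly, the change from 0h to 72h was called in 4 Kcn probesets (2.41%, beside 0.988% of all), those of Kcna1, Kcnk6, Kcnj9 (0.61 ± 0.139) and Kcnk2 (-0.30 ± 0.0674), and the change from 0h to 7d in 1, of Kcnd3 (0.43 ± 0.0918; 0.602%, beside 0.437% of all). Without the 3 arrays of low weight 16 Kcn probesets passed the F test over times (4.69% of all), and Kcnd3, Kcnk2 and 1 of the Kcna1 probesets did not (adjusted p = 0.0125, 0.0111 and 0.0139).

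Subfamily medians are a description, since no test over a subfamily was made. Median differences of the 10 Kcnh probesets were 0.136 at 0h and 0.104 at 72h, those of the 5 Kcnma1 probesets 0.345 at 72h, and those of the 2 Kcnf1 probesets 0.377 at 72h. The 11 Kcnd, 12 Kcnip and 6 Kcnn probesets, from the A-type channels, their KChIP partners and the small-conductance calcium-activated channels, had medians between -0.034 and 0.054 at all 4 times and no calls at any single time. Kcnip2 differed by 0.46 ± 0.184 at 0h (adjusted p = 0.16) and Kcnn2 by 0.27 ± 0.101 at 72h (adjusted p = 0.198), each by its representative probeset. Of the 12 probesets with a Kcnq symbol, 6 report the non-coding Kcnq1ot1, and none of the 12 was called at any single time. The M-current gene Kcnq5 differed by 0.26 ± 0.185 at 0h (adjusted p = 0.557). Kcnab1, a beta subunit of Kv1 channels, was higher at 0h by 0.39 ± 0.15 and was not called (adjusted p = 0.134). Kcng4 differed by -0.40 at 0h, Kcnt2 by 0.38 and Kcnh2, which encodes the ERG1 channel, by 0.33 at 72h, none of them called.

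Other differences are given by representative probeset. Kcna5 was higher by 0.40 ± 0.187 at 0h (adjusted p = 0.258), Kcnc1 differed by -0.25 at 0h and Kcnd1 by -0.13 at 8h. Kcne2, a dim probeset with a mean of 4.05, differed by 0.22 at 8h, Kcnj14 by -0.29 and Kcnip4 by 0.17 at the same time. At 7d Kcnk12 differed by -0.21, Kcnmb4os1 by -0.20, Kcnh3 by -0.15, Kcnu1 by 0.14 and Kcnv1 by 0.18. None of these was called. The brightest representative probeset of a Kcn gene was that of Kcnd2 (mean 11.77) and the dimmest that of Kcne3 (mean 3.12), and neither was called in CIE against Ctrl at any time.

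Collection time was also compared within each treatment. In the Ctrl groups, which had no ethanol, 17 Kcn probesets of 15 genes were called over the 4 times (10.2%, near the 10.9% of all), and in the CIE groups 7 probesets of 4 genes (4.22%, beside 7.76% of all). Without the 3 arrays of low weight these counts were 31 (16.1% of all) and 11 (8.96% of all). The CIE groups hold 22 mice and the Ctrl groups 24, and the difference between the courses was tested only as the change of the CIE effect.

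Kcnj16 had the lowest adjusted p of the Ctrl courses (1.88e-06). Its mean in Ctrl mice was 8.47 ± 0.188 at 0h, 8.58 ± 0.0808 at 8h, 8.27 ± 0.0905 at 72h and 7.88 ± 0.232 at 7d (n = 6 each), so it fell by 0.59 from 0h to 7d, one of 3 Kcn probesets called in that step (1.81%, beside 2.23% of all). In CIE mice it was 8.09 ± 0.131 at 0h and rose by 0.40 to 8.49 ± 0.155 at 8h (n = 6 each), a step called in its 2 probesets (1.20%, beside 3.24% of all). At 7d the CIE mean was 7.92 ± 0.145 (n = 4), and the adjusted p over the CIE course was 0.000211. From 8h on the courses ran together. The difference at 0h thus lay between a Ctrl group near its highest level and a CIE group near its lowest.

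Kcne1l, also named Kcne5, an accessory subunit gene, was called in both courses. In Ctrl mice its mean was 6.92 ± 0.132 at 0h, 6.81 ± 0.103 at 8h, 7.39 ± 0.113 at 72h and 7.32 ± 0.122 at 7d (adjusted p = 0.000182 over the course). In CIE mice it was 6.75 ± 0.0974 at 0h and 6.95 ± 0.215 at 72h, and it rose by 0.61 from 0h to 7.36 ± 0.141 at 7d (adjusted p = 5.69e-05 over the course). At 72h it ran from 7.20 through 7.39 to 7.54 in Ctrl and from 6.78 through 6.84 to 7.32 in CIE, a difference of -0.44 ± 0.112 (adjusted p = 0.0295) that was called without the 3 arrays of low weight (adjusted p = 0.000544). At 8h CIE mouse 21 stood at 7.41 and the other CIE mice between 6.31 and 6.52.

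Kcna1 fell with time after ethanol vapor in 3 of its 4 probesets, by 0.83, 0.73 and 0.46 from 0h to 72h (adjusted p over the CIE course 3.75e-06, 2.93e-05 and 0.00244), and Kcnk6 fell by 0.45 to 72h and by 0.51 to 7d (adjusted p = 9.32e-05). In single steps of the CIE course 6 Kcn probesets were called from 0h to 72h (3.61%, beside 6.07% of all) and 4 from 0h to 7d (2.41%, beside 2.49% of all). In Ctrl mice Kcna1 had its lowest mean at 8h, 10.73 against 11.17 at 0h, and Kcnmb4 was also low at 8h, 10.02 against 10.31. Of the other genes called in the Ctrl course, Kcnh1 (8.68 to 9.06 in 1435994_at) and Kcnh8 (6.25 to 6.59) had higher means at 8h than at 0h. They encode EAG and ELK channels. The dimmer Kcnh1 probeset, 1418414_at, went only from 8.23 to 8.27. Kcnd2 had a higher mean at 7d than at 0h (10.03 to 10.40 in 1450773_at), and Kcnj5 (6.45 to 6.11 in 1441590_at) and Kcnk10 (6.80 to 6.53 in 1438088_at) had lower ones. Dimmer probesets of these 2 genes went from 5.41 to 5.51 (Kcnj5, 1421762_at) and from 5.28 to 5.25 (Kcnk10, 1431613_a_at). Kcne4 rose by 0.42 from 0h to 72h, the 1 Kcn probeset called in that step (0.602%, beside 0.173% of all), and Kcnd3 (1442555_at) fell by 0.32 from 0h to 7d. The course was also called for Kcng2, Kcnk1 (1455896_a_at), Kcnmb4os2 and Kcnq1ot1. The brightest Kcnk1 probeset, 1448690_at, had Ctrl means from 11.52 to 11.61.

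**Figure D5:**
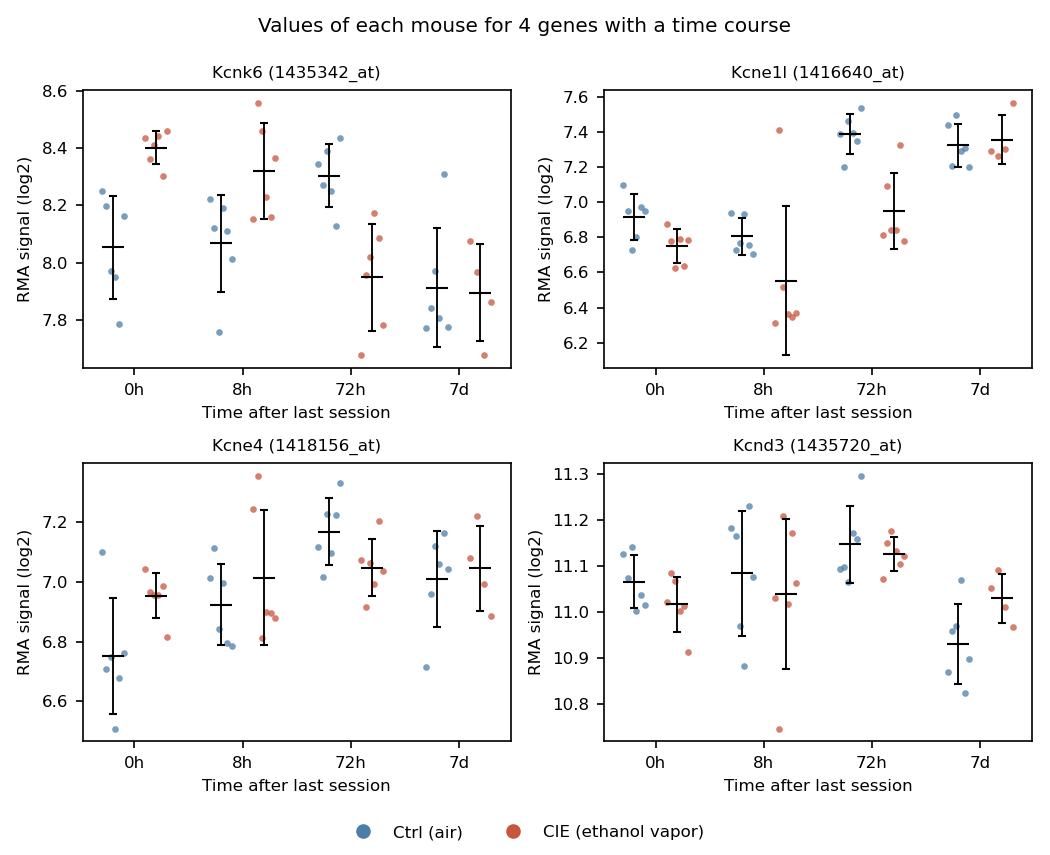
RMA signal (log2) of each mouse for Kcnk6, Kcne1l, Kcne4 and Kcnd3 (representative probesets) over the 4 times (blue, Ctrl; red, CIE; black line and bar, mean ± SD; n = 6 a group, 4 for CIE at 7d). The CIE mean lay above the Ctrl mean at 0h and below it at 72h for Kcnk6 and below it at 72h for Kcne1l, none of them called at that time, and Kcne4 had its lowest mean in Ctrl mice at 0h. The Kcnd3 probeset shown, 1435720_at, is the bright one and was not called.

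Several members lie next to each other in the genome, and in some of these pairs 1 gene was called while its neighbor was not. In the RefSeq annotation of GRCm38.p6, 9 pairs of protein-coding members follow each other with no other protein-coding gene between them, among them Kcnj9 and Kcnj10, Kcnj16 and Kcnj2, Kcna5 and Kcna1, and Kcnj5 and Kcnj1. At 72h Kcnj9 was higher by 0.46 while Kcnj10 differed by -0.16 (adjusted p = 0.26). At 0h Kcnj16 fell by 0.38 while Kcnj2, a dim probeset with a mean of 3.21, differed by -0.05. Kcna1 and Kcna5 differed by 0.47 (1417416_at) and 0.40 at 0h, of which that of Kcna1 was called.

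Of 27 genes whose products bind, traffic or modify potassium channels without a Kcn name, 24 were measured. At 0h and 8h 1 of these 24 was called, beside 3.09% of all genes at 0h and 0.742% at 8h. It was Sgk1, a glucocorticoid-induced kinase that acts on Kv channels through the ubiquitin ligase Nedd4l. It was higher in CIE by 0.67 at 0h (adjusted p = 0.000829) and 0.87 at 8h (adjusted p = 6.13e-05), and it differed by -0.55 at 72h (adjusted p = 0.0189, not called). Over the 24 genes the median differences were -0.014, 0.005, 0.013 and -0.002 at 0h, 8h, 72h and 7d. None was called at 72h or 7d, beside 0.687% and 0% of all genes. The Kv4 partners Dpp6 and Dpp10, the Kv2 partners, the 5 Kv1 clustering genes (Cntnap2, Cntn2, Lgi1, Adam22 and Ank3), the 3 measured BK gamma subunits and the sulfonylurea receptors gave no calls at any time.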

How the data were processed

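RNA from the BNST of 46 mice, 1 per array, was hybridized to Affymetrix mouse genome arrays. The deposited values are log2 probeset signals. The authors ran RMA on each hybridization batch by itself, quantile-normalized all arrays together, and then adjusted for batch with ComBat. Tool versions and the batch of each array are not given in the sources used here. Batch was therefore not tested, and a shift shared by most genes would not be seen. Gene names came from the platform table, where 34945 probesets had 1 symbol, 932 several and 9160 none.

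Group means were fitted to all arrays with limma 3.58.1 (R 4.3.3; lmFit and eBayes, two-sided, 38 residual degrees of freedom). P values were adjusted by Benjamini-Hochberg over 45037 probesets per comparison, and 0.01 was the threshold. F tests covered the 4 CIE comparisons, the change of the CIE effect, and each time course. Each gene was represented by its brightest probeset. Array weights came from limma. The script was tested on simulated data. Alternatives were a fit of the compared groups alone, array weights, aligned medians, eBayes with trend and robust, a mean of at least 5, a threshold of 0.05, no cross-hybridizing probesets, gene means, leaving out each array, and, chosen after seeing the data, leaving out the 3 arrays of lowest weight.

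Named were Kcn genes called in any test, the smallest p values at each time, the largest difference of each subfamily, and the highest and lowest mean. Kcnj1, Kcnj2, Kcnj6, Kcnj10, Kcnk13 and Kcns1 were named after their values were seen. The members and lists were chosen with earlier results of these data known. Kcnj8 (1 probeset) was left out by the rule.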

Additional observations from a re-analysis of the deposited data

Results flagged for a closer look

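The CIE effect on Kcna1 (1417416_at) and on Kcnk6 differed between times, with adjusted p = 0.00101 and adjusted p = 0.00181 in limma's F test of the change. The change of the effect from 0h to 72h was -0.72 for Kcna1 and -0.70 for Kcnk6. The CIE minus Ctrl differences at 0h, 8h and 72h were 0.47, 0.49 and -0.25 for Kcna1, called at 0h and 8h and not at 72h, and 0.35, 0.25 and -0.36 for Kcnk6, called at none of these times. The brightest Kcna1 probeset, 1455785_at, differed by -0.06 at 72h, and its change of effect was not called (adjusted p = 0.124).

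In the representative probesets of 12 genes, 13 of 96 groups held 1 mouse far from the others of its group. The genes were those called in CIE against Ctrl or in the F tests of the CIE effect, with Kcne1l and Kcne4 added. In a single group chance gives about 1 in 20. The same mice recur across genes, so the count does not measure an excess over chance. CIE 8h mouse 21 stood apart in 3 genes, with 7.41 for Kcne1l (nearest mouse 6.52), 9.37 for Kcnj3 (nearest 9.74) and 8.84 for Kcns2 (nearest 9.34). CIE 0h mouse 19 stood apart in Kcnj3 at 9.85 (nearest 9.60) and in Kcnk2 at 9.96 (nearest 10.08), and CIE 0h mouse 57 in Kcnma1 at 9.86 (nearest 9.55). At 72h, Kcnj16 was 8.46 in Ctrl mouse 68 (nearest 8.26) and 7.90 in CIE mouse 3 (nearest 8.20), and Kcnma1 was 8.47 in CIE mouse 63 (nearest 9.30). At 7d, Kcnk2 was 9.68 in Ctrl mouse 80 (nearest 9.89), Kcnk6 was 8.31 in Ctrl mouse 70 (nearest 7.97) and Kcne1l was 7.57 in CIE mouse 65 (nearest 7.30). Ctrl 0h mouse 48 was at 10.94 for Kcna1 (1455785_at; nearest 11.23). The causes were not tested.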

How the results depend on the processing

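Among the differences that were recomputed by representative probeset, none changed sign under the alternatives. Recomputed were the differences of genes called at that time, those with the smallest p at each time, and the largest of each subfamily. Other differences given above, such as those of the called genes at 7d, were not recomputed. The alternatives included the 46 fits that left out 1 array. Of these recomputations, 1748 kept their side of the threshold, 28 passed it only under the alternative and 33 lost it. Only a difference called in the main fit can lose it, and many named differences were not called. These counts therefore do not measure how stable the calls were. In fits of the compared groups alone, 0 Kcn probesets were called at 8h and 8 at 72h. With array weights, 14 were called at 72h, 16 in the F test over times, 6 in the change of effect, 27 in the Ctrl course and 15 in the CIE course. At an adjusted p of 0.05, 10 were called at 0h, 3 at 8h, 14 at 72h, 18 in the F test, 8 in the change of effect, 43 in the Ctrl course and 17 in the CIE course. The share of all probesets called under these settings, or with single arrays left out, is not given here. That share can rise with the count, so a larger count is not by itself a stronger Kcn result. Without the 3 arrays of lowest weight, chosen after seeing the data, 8 were called at 0h (3.04% of all probesets) and 10 at 72h (1.43%). In the same fit 16 were called in the F test (4.69%), 31 in the Ctrl course (16.1%) and 11 in the CIE course (8.96%). With each array left out in turn, counts ran from 1 to 7 at 0h (1 without Ctrl 0h mouse 12 or without CIE 0h mouse 26, 57 or 67), 0 to 1 at 8h (0 without Ctrl 8h mouse 8, 42 or 75, Ctrl 72h mouse 44, CIE 8h mouse 23, 40, 41 or 69, or CIE 72h mouse 35), 1 to 6 at 72h (1 without Ctrl 72h mouse 44 or 68 or CIE 72h mouse 3), 0 to 0 at 7d, 5 to 12 in the F test (5 without CIE 72h mouse 3), 2 to 3 in the change of effect, 12 to 24 in the Ctrl course and 7 to 10 in the CIE course. Of 46 such fits, Kcnk2 at 0h and Kcnj3 (1455374_at) at 72h were called in 46, Kcnj3 (1444025_at) in 43, Kcna1 in 41 at 0h and 36 at 8h, Kcnj16 in 39 and 38, Kcnmb4 in 35, Kcnj9 in 33 and Kcnma1 in 16; in the F test Kcns2 was called in 37 and Kcnd3 in 19. The causes were not tested. No paired analysis was possible because replicate numbers name single mice and are not shared between groups. The arrays give no detection call per probeset here, so dim probesets, such as those with a mean below 5, could miss changes.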
